A study of Homo sapiens with 18 samples.

Results

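MYC and the transcription factors that share its dimer partners MAX and MLX were followed through 18 RNA-seq libraries of HCT116 cells, a human colorectal carcinoma line of epithelial origin. The 8 genes MYC, MAX, MXD1, MXD3, MXD4, MXI1, MNT and MLX were taken by gene symbol from a table of 61552 genes, and all 8 were among the 19038 genes with enough counts to test. The study asks how IκBα, the inhibitor that keeps NF-κB dimers in the cytoplasm, acts apart from NF-κB in intestinal stemness. All cells carried a knock-in of IκBα, in 3 lines labelled N108 mutant, M3 mutant (alanine at residues 84, 85 and 86) and WT, and each line was sequenced both untreated and after a 40 min exposure to human TNFα (0.1 µg/mL). Each of the 6 groups (N108 with TNF and untreated, M3 with TNF and untreated, WT with TNF and untreated) had 3 libraries.

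MYC is a basic helix-loop-helix leucine zipper factor that binds E-box DNA as a dimer with MAX and recruits histone acetyltransferases and elongation factors to genes of ribosome production, nucleotide synthesis and the cell cycle. MXD1, MXD3, MXD4, MXI1 and MNT bind MAX as well, occupy the same E-boxes and bring in the SIN3 histone deacetylase corepressor, so that they oppose MYC. MLX pairs with MXD1, MXD4, MNT and the nutrient sensors MondoA (MLXIP) and ChREBP (MLXIPL) instead of MAX. In the intestine MYC is a target of Wnt and β-catenin signalling, and HCT116 cells carry a stabilised β-catenin.

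Library totals lay between 49021907 and 76947190 counts. The labels name 1 line per genotype, so that a mutation and the line that carries it cannot be told apart, and nothing in them ties replicates to separate cultures, so that a p-value here reflects only how libraries of a group vary. NFKBIA, which encodes IκBα, had 276, 966 and 758 CPM (counts scaled to a common library total) with TNF in N108, M3 and WT, against 30.3, 77.9 and 91.6 CPM untreated, and counts per gene do not show the altered residues. All 7 epithelial markers looked at (EPCAM, KRT8, KRT18, KRT19, CDH1, CLDN4 and ELF3) were present in every library. In untreated cells 6 of the 7 were called lower than in WT in N108, and 5 lower and 1 higher in M3. Of all genes tested, 20.9% were higher and 21.6% lower in N108, and 26.1% and 26.8% in M3. Their summed level was 5120 to 5750 CPM in N108 and 4190 to 4720 CPM in M3 against 6650 to 7570 CPM in WT. The part of this in the results that follow was not tested. Of 11 markers of blood, stromal, endothelial and melanocytic cells, PTPRC reached at most 0.0164 CPM and CD14 at most 0.163 CPM, while COL1A1 lay between 15.3 and 36.4 CPM. In bulk RNA, fewer cells with a transcript and less of it per cell cannot be told apart.

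MYC had the network's highest level per kilobase of exon in every group and stood well above its WT level in both mutant lines. Untreated libraries held 487, 467 and 469 CPM in N108 and 519, 556 and 549 CPM in M3, against 248, 257 and 251 CPM in WT. With TNF they held 525, 624 and 554 CPM in N108 and 684, 695 and 676 CPM in M3, against 292, 286 and 314 CPM in WT. Every mutant library lay above every WT library, treated or not. From high to low, the groups ran M3 with TNF, N108 with TNF, untreated M3, untreated N108, WT with TNF and untreated WT, and only the second and the third of these overlapped. The gene lies on chromosome 8 (127735434 to 127741434, plus strand, GRCh38, GENCODE 29).

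Against WT, untreated MYC was higher by a log2 fold change of 0.91 in N108 (SE 0.0508, edgeR's quasi-likelihood test, adjusted p = 2.26e-14, n = 3 per group) and by 1.10 in M3 (SE 0.051, adjusted p = 2.05e-16). With TNF these differences were 0.93 (SE 0.0508, adjusted p = 1.41e-14) and 1.20 (SE 0.0511, adjusted p = 3.06e-17). N108 was lower than M3, at a log2 difference of -0.19 untreated (SE 0.0503, adjusted p = 0.00434). With TNF the difference was -0.27 (SE 0.0503, adjusted p = 0.000103). Over the settings tried, MYC's fold change stayed between 0.86 and 1.00 for N108 with TNF and between 1.18 and 1.27 for M3 with TNF, and all 15 settings called each.

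The 3 lines differed over much of the transcriptome, which sets the scale for these calls. Of all genes tested, 42.4% differed between N108 and WT untreated and 46.7% with TNF, and 52.9% differed between M3 and WT untreated and 54.7% with TNF. Between N108 and M3 the shares were 31.5% untreated and 37.3% with TNF. Against this, 7 of the 8 network genes were called in untreated N108 (4 higher, 3 lower), 6 in untreated M3 (3 and 3), 6 in N108 with TNF (4 and 2) and 7 in M3 with TNF (4 and 3). Between N108 and M3, 3 were called untreated (0 higher, 3 lower) and 5 with TNF (2 higher, 3 lower). By the size of its log2 fold change MYC ranked 1404 of 19038 genes in untreated N108 and 1577 in untreated M3.

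**Figure D1:**
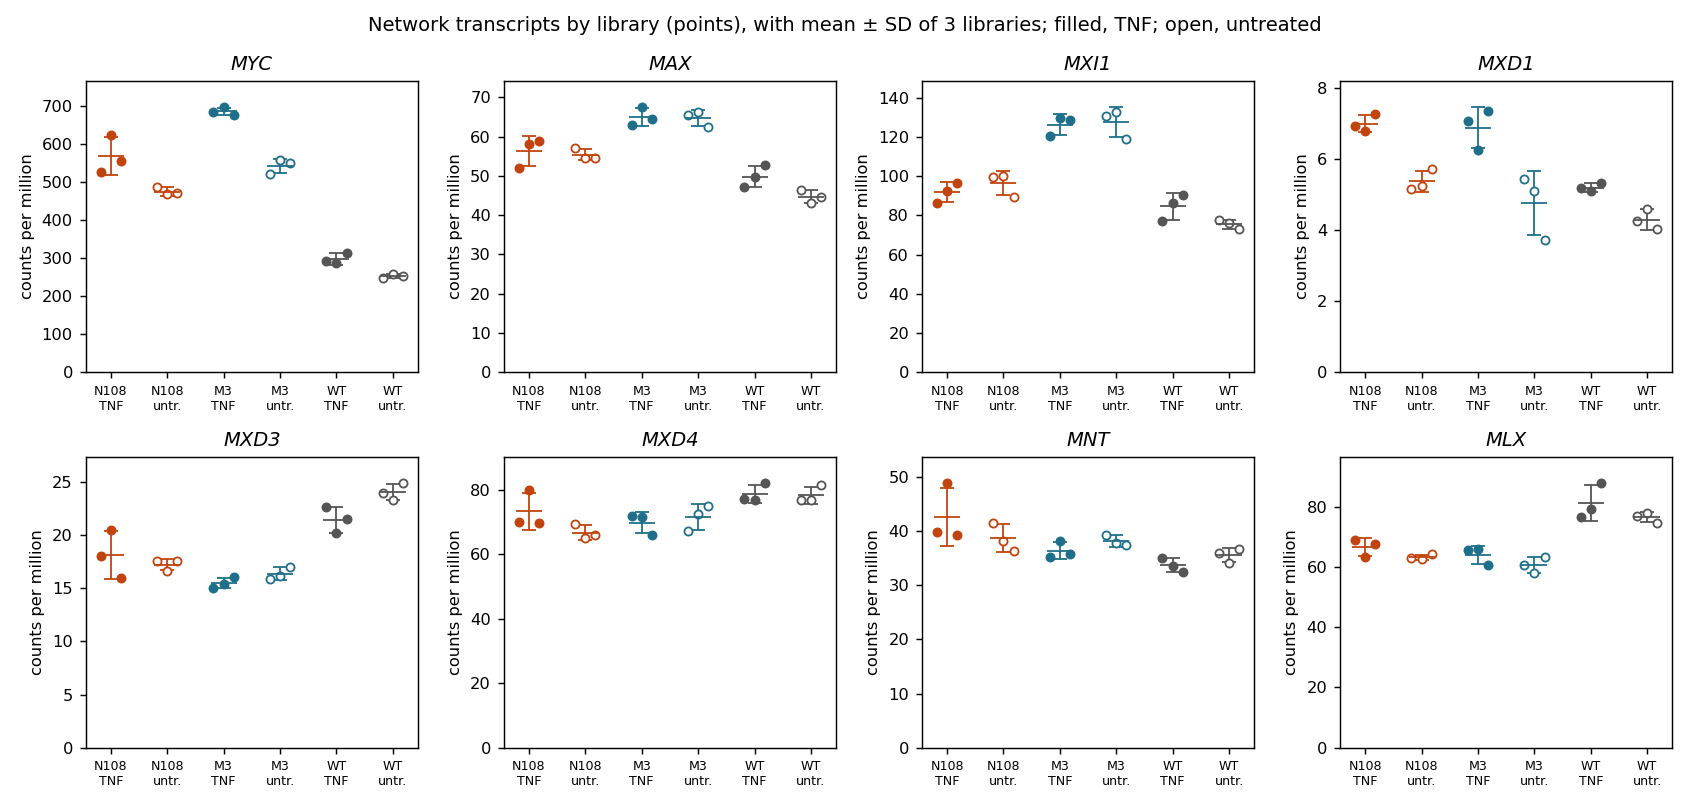
Level of each network transcript in CPM (vertical axes from 0) for the 6 groups, with 1 point per library and the mean ± SD of 3. MYC, MAX and MXI1 sit higher in untreated M3 and N108 than in untreated WT, and MXD3 and MLX sit lower.

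MAX, the obligate partner through which MYC and its opponents bind DNA, was higher in both mutant lines too, by less than MYC. Untreated libraries had 57.0, 54.5 and 54.5 CPM in N108 and 65.6, 66.2 and 62.4 CPM in M3, against 46.3, 43.1 and 44.7 CPM in WT. The 3 lines did not overlap untreated. MAX differed from WT by 0.31 in N108 (SE 0.0532, adjusted p = 2.91e-05) and by 0.53 in M3 (SE 0.0532, adjusted p = 2.13e-09), and N108 lay 0.23 below M3 (log2 fold change -0.23, adjusted p = 0.00152). With TNF, MAX had 52.0, 58.0 and 59.0 CPM in N108 and 62.9, 67.4 and 64.4 CPM in M3. WT libraries had 47.1, 49.7 and 52.6 CPM. Here the N108 and WT libraries overlapped, and the difference of 0.18 (adjusted p = 0.00802) no longer passed without WT TNF replicate 1 (adjusted p = 0.0609) or with a fit on those 2 groups alone (adjusted p = 0.0644). M3 with TNF remained 0.38 above WT (adjusted p = 8.19e-07). MAX lies on chromosome 14 (65006174 to 65102695, minus strand) and overlaps FNTB on the other strand. FNTB was higher in untreated N108 (0.25, adjusted p = 0.00405) and at 0.03 in M3 (adjusted p = 0.713), and whether its reads entered MAX was not tested: which strand was counted is not given here.

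Among the repressive partners, MXI1 had the largest rise in untreated M3. In untreated N108 its rise (0.35, SE 0.0594) was close to that of MXD1 (0.32, SE 0.103). MXI1 encodes a MAX partner that recruits SIN3 and is known as a target of hypoxia-inducible factor. Untreated libraries had 99.7, 100 and 89.5 CPM in N108 and 130.8, 132.9 and 118.9 CPM in M3, against 77.5, 76.1 and 72.8 CPM in WT, with no overlap between lines. MXI1 was higher by 0.76 in M3 (SE 0.0595, adjusted p = 2.02e-11) and by 0.35 in N108 (SE 0.0594, adjusted p = 2.07e-05). With TNF it had 86.2, 92.5 and 96.4 CPM in N108 and 120.3, 129.9 and 128.8 CPM in M3, against 77.2, 86.1 and 90.4 CPM in WT. M3 stayed clear of WT (0.58, adjusted p = 3.8e-09), while N108 overlapped WT (0.12, 95% interval -0.01 to 0.25, adjusted p = 0.113). That last value passed without WT TNF replicate 3 (0.17, adjusted p = 0.0384), with upper-quartile factors (0.18, adjusted p = 0.0117) and with the GC trend of each library removed (0.14, adjusted p = 0.0357). N108 was lower than M3 untreated (-0.40, adjusted p = 5.29e-06) and with TNF (-0.46, adjusted p = 5.77e-07). The gene lies on chromosome 10 (110207605 to 110287365, plus strand). Of its 6 nearest tested neighbours SMNDC1 alone passed in untreated M3, on the lower side (-0.31, adjusted p = 0.00633), where 52.9% of all genes passed.

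MXD1 (MAD1), which rises when cells stop dividing and differentiate, was the scarcest member, at 201 to 450 counts per library. It had 6.91, 6.79 and 7.26 CPM in N108, 7.05, 6.23 and 7.33 CPM in M3 and 5.16, 5.08 and 5.33 CPM in WT with TNF. Untreated libraries had 5.15, 5.23 and 5.71 CPM in N108 and 5.43, 5.10 and 3.72 CPM in M3, against 4.25, 4.59 and 4.02 CPM in WT. With TNF all mutant libraries lay above all WT libraries, and MXD1 was higher by 0.43 in N108 (SE 0.101, adjusted p = 0.000974) and by 0.41 in M3 (SE 0.101, adjusted p = 0.00128). Untreated N108 was higher by 0.32 (adjusted p = 0.0134), a call that ended without N108 untreated replicate 3 (0.27, adjusted p = 0.0602) or WT untreated replicate 3 (0.28, adjusted p = 0.057). Untreated M3 differed by 0.15 (95% interval -0.08 to 0.38, adjusted p = 0.251) and passed without M3 untreated replicate 3, its lowest library (0.30, adjusted p = 0.0107). MXD1 shares a strand with the overlapping SNRNP27, which was lower in both untreated mutant lines (-0.17 in N108 with adjusted p = 0.0195, -0.16 in M3 with 0.0215). MXD1 lies on chromosome 2 (69897688 to 69942945, plus strand).

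MXD3, an MXD protein linked in mouse to proliferating cells and S phase, went the other way. Untreated libraries had 17.6, 16.6 and 17.5 CPM in N108 and 15.9, 16.2 and 17.1 CPM in M3, against 24.0, 23.3 and 24.9 CPM in WT. Both mutant lines lay below WT without overlap, by -0.48 in N108 (SE 0.0671, adjusted p = 1.27e-06) and -0.56 in M3 (SE 0.0678, adjusted p = 8.27e-08). With TNF the libraries had 18, 20.5 and 16 CPM in N108 and 15.1, 15.4 and 16.1 CPM in M3, against 22.7, 20.2 and 21.5 CPM in WT. M3 again stayed below WT (-0.47, adjusted p = 1.79e-06). N108 overlapped WT at 1 library (-0.24, adjusted p = 0.00475), and its call ended without N108 TNF replicate 3 (-0.16, adjusted p = 0.0529). MXD3 was higher in N108 than in M3 with TNF (0.23, adjusted p = 0.011), but not without N108 TNF replicate 2 (0.13, adjusted p = 0.139), without M3 TNF replicate 1 (0.20, adjusted p = 0.0584) or with the GC trend removed (0.09, adjusted p = 0.177). The gene lies on chromosome 5 (177301461 to 177312757, minus strand) and overlaps PRELID1 on the other strand, which had 152419 counts over the 18 libraries against 20071 for MXD3. PRELID1 itself was at 0.05 in N108 and -0.06 in M3 against WT untreated (adjusted p = 0.507 and 0.362). RAB24, on MXD3's strand, was lower in N108 (-0.78, adjusted p = 1.12e-05) and at -0.14 in M3 (adjusted p = 0.35), and its part in the MXD3 counts was not tested.

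MXD4, a MAX partner of resting and differentiated cells, ranged from 65.0 to 69.4 CPM in N108 and from 67.2 to 74.9 CPM in M3, against 76.8 to 81.4 CPM in WT, untreated. It was lower in N108 (-0.23, SE 0.0553, adjusted p = 0.00122) and near the threshold in M3 (-0.13, SE 0.0553, adjusted p = 0.0491). The M3 call was lost without any 1 of 5 libraries (M3 untreated replicates 1 and 2 with adjusted p = 0.278 and 0.0788, WT untreated replicates 1, 2 and 3 with 0.0651, 0.0631 and 0.177), with upper-quartile factors (-0.09, adjusted p = 0.211), with the replicate block (adjusted p = 0.06) and with the GC trend removed (-0.07, adjusted p = 0.132). With TNF, MXD4 was lower in M3 (-0.17, adjusted p = 0.00958), though not without M3 TNF replicate 3 (-0.13, adjusted p = 0.0794), without WT TNF replicate 3 (-0.14, adjusted p = 0.054) or with upper-quartile factors (-0.10, adjusted p = 0.121). N108 with TNF was at -0.10 (95% interval -0.22 to 0.02, adjusted p = 0.13) and passed without N108 TNF replicate 2 (-0.17, adjusted p = 0.0108) and with the GC trend removed (-0.16, adjusted p = 0.00167).

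MNT, the MAX and MLX partner that is present in dividing and resting cells alike, ranged from 36.4 to 41.6 CPM in N108 and from 37.4 to 39.4 CPM in M3, against 34.1 to 36.8 CPM in WT, untreated. Neither difference passed (0.12, adjusted p = 0.149 and 0.10, adjusted p = 0.205), and both passed with the GC trend removed (0.22, adjusted p = 0.00143 and 0.19, adjusted p = 0.00367), N108 also in a fit on those groups alone (0.12, adjusted p = 0.0412). With TNF, MNT had 39.9, 48.9 and 39.3 CPM in N108, 35.3, 38.3 and 35.7 CPM in M3, and 35.0, 33.6 and 32.4 CPM in WT. It was higher in N108 than in WT (0.34, SE 0.0666, adjusted p = 0.000131). N108 replicate 2 stood apart from replicates 1 and 3. The rise over M3 (0.23, adjusted p = 0.00772) ended without that library (0.12, adjusted p = 0.125) and with the GC trend removed (0.09, adjusted p = 0.218). Over genes, the deviation of that library from its group mean tracked GC content (Spearman 0.454). MNT in M3 with TNF was at 0.11 (adjusted p = 0.158) and passed with the GC trend removed (0.18, adjusted p = 0.0067), with upper-quartile factors (0.18, adjusted p = 0.025) and in a fit on those groups alone (0.12, adjusted p = 0.0454). MNT lies on chromosome 17 (2384060 to 2401118, minus strand) and MXD4 on chromosome 4 (2247432 to 2262294, minus strand).

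MLX, which joins MNT, MXD1 and MXD4 with the glucose-sensing Mondo factors, was lower in both mutant lines in either state. It ranged from 62.5 to 64.1 CPM in N108 and from 57.9 to 63.1 CPM in M3, against 74.6 to 78.0 CPM in WT, untreated. With TNF the ranges were 63.4 to 68.9 CPM in N108 and 60.5 to 65.8 CPM in M3, against 76.5 to 87.8 CPM in WT. No mutant library reached a WT library. The differences were -0.28 in N108 (SE 0.0523, adjusted p = 9.53e-05) and -0.34 in M3 (SE 0.0525, adjusted p = 4.46e-06) untreated, and -0.29 (adjusted p = 6.49e-05) and -0.34 (adjusted p = 3.41e-06) with TNF. All 15 settings kept each of these calls. N108 and M3 differed by 0.06 in both states, with 95% intervals of -0.05 to 0.18 untreated and -0.06 to 0.17 with TNF. MLX lies on chromosome 17 (42567068 to 42573239, plus strand). Of its 6 nearest tested neighbours 3 were lower in both lines untreated: PSMC3IP, which overlaps it on the other strand, at -0.61 and -0.58, COASY at -0.27 and -0.27, and TUBG1 at -0.23 and -0.32. HSD17B1 was higher in N108 (1.47) and RETREG3 in M3 (0.12). Over all genes, 20.9% were higher and 21.6% lower in untreated N108, and 26.1% and 26.8% in untreated M3.

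**Figure D2:**
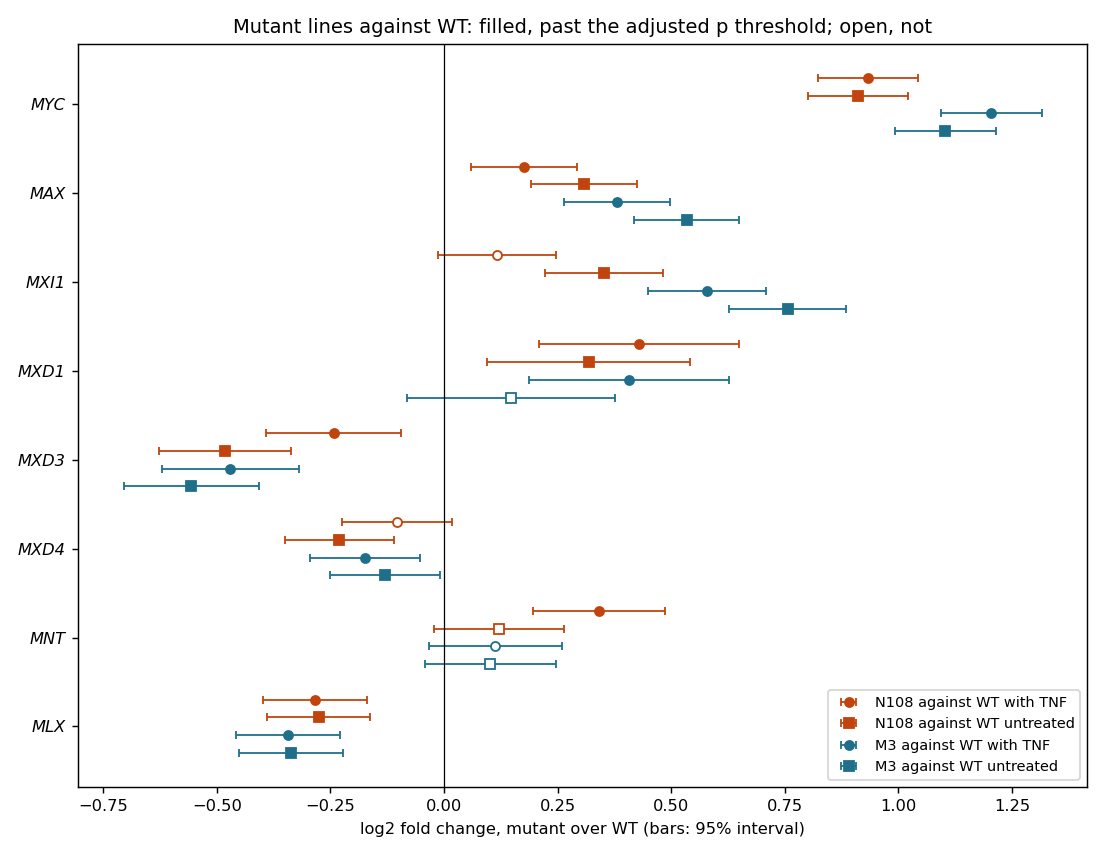
Log2 fold change of each member in N108 and M3 over WT (horizontal axis), with TNF (circles) and untreated (squares). Bars are 95% intervals of the fit over all 18 libraries, and filled symbols passed the adjusted p threshold of 0.05. MYC stands between 0.91 and 1.20, while the other members lie between -0.56 and 0.76.

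The promoters of 7 members (all but MYC), with 10 start sites, are in RefSeq's table (GRCh38.p14), and the E-box CACGTG, the site that MYC, MXD and MNT dimers with MAX all bind, was looked for in the 250 bases before each start. The motif reads the same on both strands. It occurred before 3 of the 10 starts, those of MXD4, MNT and MLX, and before 6.34% of all 35116 starts in the table. The NF-κB consensus, searched on both strands, occurred before none of the 10 and before 5.21% of all starts. The 3 windows with an E-box are shown with it in capitals, together with that of MXD1, which holds neither motif. MXD1 was the repressive partner called higher with TNF in M3 and, at the threshold, in N108, but not in WT.
MXD4 (chr4:2262110-2262359, minus strand): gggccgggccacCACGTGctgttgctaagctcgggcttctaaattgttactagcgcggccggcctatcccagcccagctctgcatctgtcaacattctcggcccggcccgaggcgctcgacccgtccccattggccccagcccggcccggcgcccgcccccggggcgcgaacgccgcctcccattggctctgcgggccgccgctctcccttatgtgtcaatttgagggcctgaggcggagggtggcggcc
MNT (chr17:2401061-2401310, minus strand): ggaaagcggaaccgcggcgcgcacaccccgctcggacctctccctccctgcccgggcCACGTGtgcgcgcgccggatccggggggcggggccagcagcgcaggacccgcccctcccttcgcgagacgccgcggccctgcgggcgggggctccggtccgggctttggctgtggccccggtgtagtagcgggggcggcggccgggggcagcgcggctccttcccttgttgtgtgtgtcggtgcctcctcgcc
MLX (chr17:42566850-42567099, plus strand): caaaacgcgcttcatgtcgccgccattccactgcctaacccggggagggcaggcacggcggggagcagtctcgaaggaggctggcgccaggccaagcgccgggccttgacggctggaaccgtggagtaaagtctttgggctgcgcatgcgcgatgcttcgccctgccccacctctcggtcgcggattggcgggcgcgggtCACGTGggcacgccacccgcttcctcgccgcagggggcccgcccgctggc
MXD1 (chr2:69914859-69915108, plus strand): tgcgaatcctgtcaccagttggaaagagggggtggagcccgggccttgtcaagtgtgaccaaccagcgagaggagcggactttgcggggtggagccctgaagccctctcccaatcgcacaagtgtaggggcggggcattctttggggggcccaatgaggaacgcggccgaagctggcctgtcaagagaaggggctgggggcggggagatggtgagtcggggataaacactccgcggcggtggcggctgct
The E-box began 238 bases before the start of MXD4, 193 before that of MNT and 50 before that of MLX. In untreated N108, MXD4 (-0.23) and MLX (-0.28) were lower and MNT was not called (0.12). Untreated M3 had -0.13, -0.34 and 0.10 for these genes, and its MXD4 call held in 5 of 15 other settings. With the GC trend removed, MNT passed as higher in N108 (0.22) and M3 (0.19). A match is a description of the letters and not of binding.

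TNF moved few members. In N108 MYC and MXD1 were called of 8 members, in M3 the same 2, and in WT MYC alone, all higher, against 1.2%, 1.38% and 5.18% of all genes tested in these comparisons. MYC rose by 0.26 in N108 (SE 0.0503, adjusted p = 0.00301), by 0.34 in M3 (SE 0.0503, adjusted p = 6.51e-05) and by 0.24 in WT (SE 0.0506, adjusted p = 0.00355). In each line its 3 TNF libraries lay above its 3 untreated libraries. The WT call ended narrowly without WT TNF replicate 3 (0.20, adjusted p = 0.0513), and the N108 call with a fit on its own 6 libraries (0.26, adjusted p = 0.0992). In M3 all 15 settings kept it.

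MXD1 rose with TNF by 0.53 in M3 (SE 0.101, adjusted p = 0.00208) and by 0.38 in N108 (SE 0.0984, adjusted p = 0.0496), and was at 0.27 in WT (SE 0.105, adjusted p = 0.149, unadjusted p = 0.015). All TNF libraries lay above all untreated ones within each line. The N108 value sat on the threshold and failed without any 1 of 5 libraries: untreated replicates 1, 2 and 3 (adjusted p = 0.165, 0.283 and 0.0661) and TNF replicates 1 and 2 (0.0971 and 0.104). It also failed with the replicate block (adjusted p = 0.0807) and with upper-quartile factors (0.0537). The M3 call failed in a fit on its own 6 libraries alone (0.54, adjusted p = 0.0502).

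The other 6 members were not called in any line. MAX was at 0.03 in N108, 0.00 in M3 and 0.16 in WT, the last at an adjusted p of 0.0965, and MXI1 at -0.07, -0.01 and 0.16, the last at 0.122. Both passed in WT without WT TNF replicate 1 (MAX 0.20, adjusted p = 0.0494, and MXI1 0.23, adjusted p = 0.0279). MXD3 was at -0.16 in WT (adjusted p = 0.175) and passed there in a fit on the WT libraries alone (-0.19, adjusted p = 0.0475). MXD4 (0.14, adjusted p = 0.265) and MNT (0.14, adjusted p = 0.307) had their largest values in N108. MLX was between 0.08 and 0.09 in all 3 lines. The size of the TNF effect in N108 tracked GC content over the transcriptome (Spearman 0.493, a description across genes, which are no replicates), and the transcripts of MNT, MXD3 and MXD4 have GC contents of 61.4%, 61.3% and 57.6% against 43.7% for MXI1 and 42.7% for MXD1. The part of GC content in these values was tested only by removing its trend, which added MAX in WT (0.17, adjusted p = 0.0451) and took no call from the TNF comparisons.

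**Figure D3:**
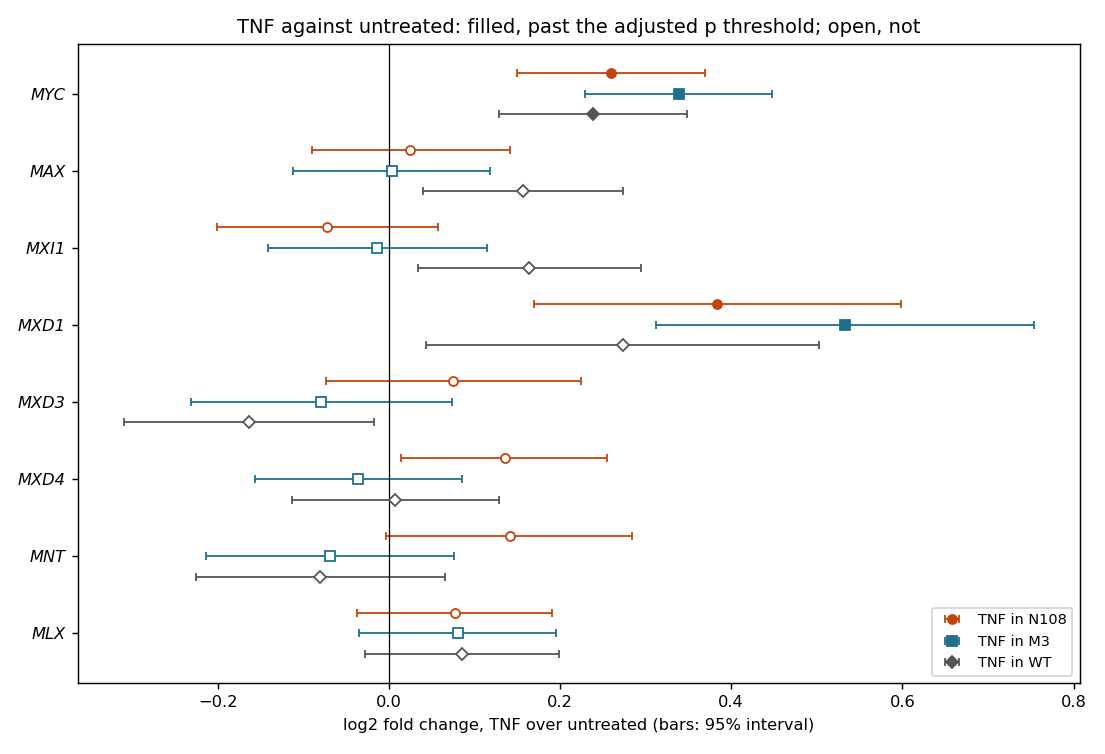
Log2 fold change with TNF over untreated (horizontal axis) of each member in N108, M3 and WT, with 95% intervals; filled symbols passed the adjusted p threshold. MYC is filled in all 3 lines, at 0.26, 0.34 and 0.24, and MXD1 in N108 and M3.

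Whether TNF acted differently on the network in a mutant line than in WT was tested as an interaction. No member passed in N108, where 2.62% of all genes did, or in M3, where 0.315% did, by edgeR or by DESeq2. At an unadjusted p under 0.05, 2 were higher and 1 lower in N108 (MXD3 at 0.24, MNT at 0.22 and MXI1 at -0.24) and 1 was lower in M3 (MXI1 at -0.18). For MYC the interaction was 0.02 in N108 (95% interval -0.13 to 0.18) and 0.10 in M3 (-0.05 to 0.26). Without N108 TNF replicate 3, MXD3 (0.32, adjusted p = 0.0191), MXI1 (-0.27, adjusted p = 0.0364) and MNT (0.28, adjusted p = 0.0462) passed in N108, and the calls over all genes were 2430, against 498 with every library. MXI1 also passed without WT TNF replicate 1 (-0.30, adjusted p = 0.0435). For MXD1 it was 0.11 in N108 (adjusted p = 0.705) and 0.26 in M3 (adjusted p = 0.64).

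The proportions between members followed. To set genes side by side, CPM were divided by the kilobases of annotated exon, which holds only as far as that length is the one expressed. In untreated WT the level per kb was 84 for MYC, 18 for MLX, 16.4 for MXI1, 11.1 for MXD4, 10.1 for MAX, 4.67 for MXD3, 4.08 for MNT and 0.675 for MXD1. MYC exceeded MAX by a ratio of 12.6 ± 0.0577 in N108 and 12.4 ± 0.651 in M3, against 8.34 ± 0.446 in WT (untreated, mean ± SD, n = 3). With TNF the ratio was 14.9 ± 1.00 in N108 and 15.6 ± 0.404 in M3, against 8.82 ± 0.345 in WT. Set over the sum of MXD1, MXD3, MXD4, MXI1 and MNT, MYC stood at 4.06 ± 0.127 in N108 and 3.91 ± 0.185 in M3, against 2.28 ± 0.0569 in WT, untreated. With TNF this was 4.74 ± 0.171 in N108 and 5.01 ± 0.114 in M3, against 2.58 ± 0.0814 in WT. The mutant and WT libraries did not overlap in either ratio.

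The makeup of the repressive partners differed as well in untreated cells. MXI1 made up 53.6% ± 1.55 of their summed level per kb in N108 and 60.0% ± 1.80 in M3, against 44.4% ± 1.47 in WT, untreated. MXD3 made up 8.58% ± 0.490 in N108 and 6.89% ± 0.456 in M3, against 12.6% ± 0.321 in WT. MXD4 made up 24.3% ± 0.850 and 22.0% ± 1.67 in N108 and M3, against 30.1% ± 0.985 in WT. Their sum was 39.0 ± 1.63 in N108 and 46.1 ± 1.43 in M3, against 36.9 ± 0.320 CPM per kb in WT. MXD1 contributed 1.62% to 2.77% in every group on average. With TNF, MXI1 made up 50.0% ± 2.64 in N108 and 60.1% ± 1.22 in M3, against 47.8% ± 2.11 in WT. N108 and WT libraries overlapped there (47.7% to 52.9% against 45.4% to 49.1%). MXD3 made up 8.85%, 6.6% and 10.9% with TNF in N108, M3 and WT, and MXD4 26.1%, 21.7% and 29.1%. These are transcript levels and say nothing of the proteins, and the ratios were not tested.

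**Figure D4:**
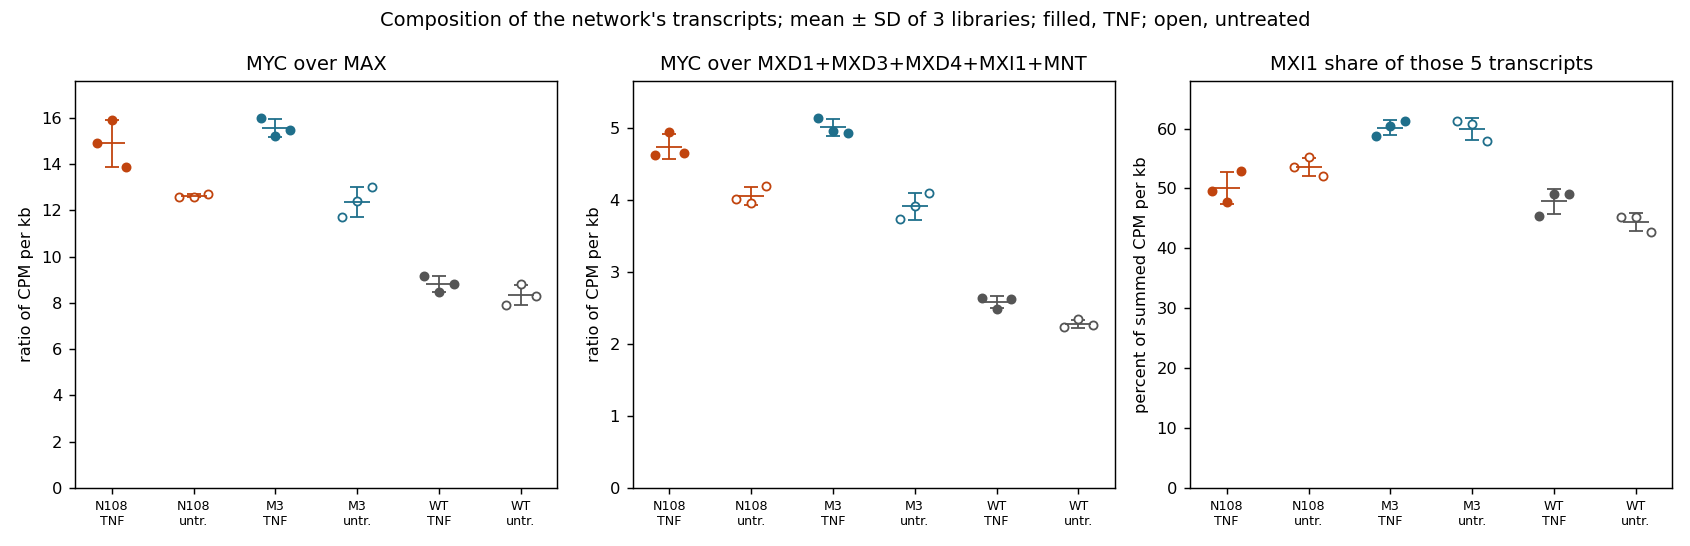
Ratio of MYC to MAX, ratio of MYC to the 5 repressive partners together (both in CPM per kb), and MXI1's percentage of those partners, by group, with 1 point per library and the mean ± SD of 3. Both ratios lie higher in all N108 and M3 libraries than in all WT libraries, with and without TNF.

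Known MYC-induced genes leaned upward in the mutant lines, by small steps. Of 40 tested from a list of 41, 18 were higher and 4 lower in untreated N108, with a median log2 fold change of 0.13, and 21 were higher and 7 lower in untreated M3, with a median of 0.14. Of all genes, 20.9% were higher and 21.6% lower in the first comparison and 26.1% and 26.8% in the second, with medians of 0.01 and 0.00. LDHA, lactate dehydrogenase, was higher in N108 (1650 against 1060 CPM in WT, 0.65, adjusted p = 1.21e-10), as were ODC1, the first enzyme of polyamine synthesis (0.35), and PAICS, of purine synthesis (0.36). In M3 PAICS (0.38), GNL3, the nucleolar protein nucleostemin (0.36), and POLR1B, a subunit of RNA polymerase I (0.39), were higher. UBTF, a transcription factor of ribosomal RNA genes, was lower in N108 (-0.28), and CDC25A, a cell cycle phosphatase, in M3 (-0.48). With TNF, 21 were higher and 4 lower in N108, against 23% and 23.6% of all genes. In M3 with TNF the counts were 20 and 6, against 26.9% and 27.8%. Over 15 other settings the count of higher genes was 14 to 25 in untreated N108, lowest without N108 untreated replicate 3, and 18 to 25 in untreated M3.

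With TNF against untreated, edgeR called none of the 40 MYC-induced genes in N108, M3 or WT. It called 1.2%, 1.38% and 5.18% of all genes there, so that few calls among 40 would be looked for. At an unadjusted p under 0.05, 6 were higher and 2 lower in N108, 2 and 2 in M3 and 3 and 3 in WT, and DESeq2 called 0, 0 and 2. Of 14 genes known to be repressed by MYC, 5 were higher and 8 lower in untreated N108, with a median log2 fold change of -0.27, and 4 were higher and 7 lower in untreated M3, with a median of -0.17. Over all genes these medians were 0.01 and 0.00, with 20.9% higher and 21.6% lower in N108 and 26.1% and 26.8% in M3. THBS1, the antiangiogenic thrombospondin, was lower at 14.6 CPM in N108 and 9.77 CPM in M3, while WT had 45.7 CPM (-1.65 and -2.22). CLU, clusterin, was lower (-0.99 and -0.83), and so was CCND1, cyclin D1 (-0.32 and -0.53). NDRG1, which is also induced by hypoxia, was higher at 354 CPM in N108 and 326 CPM in M3, while WT had 98.7 CPM (1.84 and 1.73), and SAT1, a polyamine-degrading enzyme, was higher by 0.91 and 0.96. With TNF against untreated, 1 of these 14 genes was higher in N108, 3 in M3 and 5 in WT, and 0 were lower. Higher genes made up 1.1%, 1.1% and 2.03% of all genes there. Over 15 other settings the WT count was 1 to 6. CDKN1A rose with TNF in N108 (0.47), M3 (0.375) and WT (0.197).

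Most tested targets of MLX with MondoA were higher in the mutant lines. Of 7 such genes TXNIP and PKLR had too few counts to test. Of the other 5, 4 were higher and 1 lower in both mutant lines untreated and with TNF. By DESeq2, 3 were higher in N108 with TNF. Shares over all genes were 20.9% higher and 21.6% lower in untreated N108, and 26.1% and 26.8% in untreated M3. With TNF these shares were 23% and 23.6% in N108 and 26.9% and 27.8% in M3. ARRDC4, an arrestin-domain gene, had 7.12 CPM in N108 and 21.0 CPM in M3, against 3.02 CPM in WT, untreated (1.23, adjusted p = 2.05e-08 and 2.79, adjusted p = 1.37e-15). ARRDC3 (1.27 and 1.27), the hexokinase HK2 (0.82 and 0.54) and KLF10 (0.48 and 0.24) were higher, and PFKFB3, a regulator of glycolysis, was lower (-0.48 and -0.37). KLF10 rose with TNF by 0.97 in N108, 1.32 in M3 and 1.32 in WT. MLXIP, which encodes MondoA, was higher with TNF in N108 (0.30) and M3 (0.24), and MLXIPL, which encodes ChREBP, in N108 (0.41) and M3 (0.17), each against WT. Untreated, MLXIPL was lower in M3, at 47.4 CPM, while WT had 53.2 CPM (-0.17, adjusted p = 0.0381). Of MLXIP, MLXIPL, MYCL and MGA, edgeR called 2 higher in M3 with TNF and DESeq2 1. Within WT, MLXIPL fell with TNF (-0.43, adjusted p = 0.000146).

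Genes that act on MYC itself were mixed, and their counts stand beside 20.9% of all genes higher and 21.6% lower in untreated N108, and 26.1% and 26.8% in untreated M3. TCF7L2, the β-catenin partner TCF4 that binds MYC's enhancers, had 198 CPM in N108 and 320 CPM in M3, while WT had 104 CPM, untreated (0.93, adjusted p = 1.34e-13 and 1.62, adjusted p = 3.85e-19). Across the 13 tested regulators of MYC's transcription and mRNA, 4 were higher and 3 lower in untreated N108, and 3 and 5 in untreated M3, with E2F1 lower in both (-0.43 and -0.56) and CTNNB1, β-catenin, lower in M3 (-0.26). Of 15 genes of MYC protein turnover, 0 were higher and 5 lower in N108 and 1 and 7 in M3. AURKA, a mitotic kinase that also stabilises MYC family proteins, was lower (-0.50 and -0.82), as were SKP2, a ubiquitin ligase subunit (-0.21 and -0.40), and CIP2A, which protects MYC from dephosphorylation (-0.18 and -0.47). Of 15 cofactors, 0 were higher and 4 lower in N108 and 0 and 6 in M3, led by PAF1, of the elongation complex of that name (-0.52 and -0.44), and SMARCB1, a SWI/SNF subunit (-0.23 and -0.22). The 14 SIN3 corepressor genes had 5 higher and 3 lower in either line, with SAP30 (0.46 and 0.66) and HDAC2 (0.19 and 0.22) higher and SIN3B lower (-0.24 and -0.31).

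**Figure D5:**
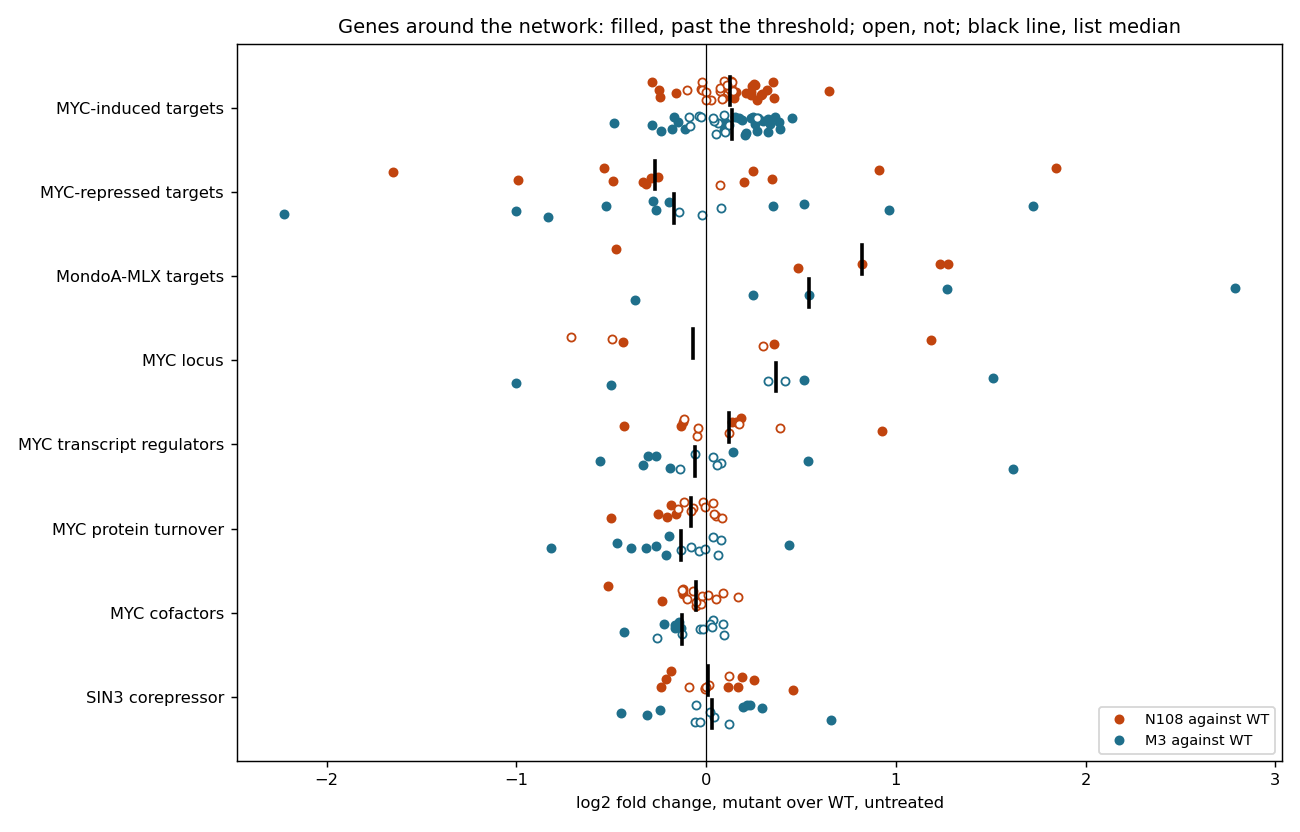
Log2 fold change over WT, untreated (horizontal axis), of the genes of 8 lists around the network in N108 (upper row of each list) and M3 (lower row), with 1 point per gene. Filled points passed the adjusted p threshold, and black lines are list medians: 0.13 and 0.14 for MYC-induced genes, and 0.82 and 0.54 for MondoA-MLX targets.

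Around MYC on the chromosome, PVT1, the long noncoding RNA next to it, was higher in both untreated mutant lines. The value was 0.36 in N108 (adjusted p = 2.26e-06) and 0.52 in M3 (adjusted p = 2.13e-09), against 0.91 and 1.10 for MYC. CASC19, a noncoding RNA of the enhancer region before MYC, stood at 24.9 CPM in N108 and 31.3 CPM in M3, while WT had 10.9 CPM (1.19 and 1.51). CASC8, of the same region, was lower (-0.44 and -0.50). CASC11, the nearest tested gene before MYC, was at 0.30 and 0.41 and did not pass (adjusted p = 0.557 and 0.376). Its level was only 0.175 CPM in N108, 0.186 CPM in M3 and 0.138 CPM in WT, untreated, so that a difference would be hard to see. None of the 6 tested genes of this region was called with TNF in N108, M3 or WT by edgeR or DESeq2. Of all genes, edgeR called 1.2%, 1.38% and 5.18% in these comparisons. At an unadjusted p under 0.05 there was 1 higher in M3 and 0 in N108 and WT.

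The transcripts most like each member over the 18 libraries were found by Pearson's r of log2 CPM among 13821 genes. The libraries fall into 3 lines, so that these values largely describe differences between lines. MYC was most like TMEM241 (0.986), TSC22D1 (0.986), a leucine zipper regulator, and DUSP6 (0.983), the ERK phosphatase. DUSP6 averaged 255 CPM in N108 and 303 CPM in M3, against 142 CPM in WT, untreated. MXD1 was most like EREG (0.869), the EGF receptor ligand epiregulin, WNT10A (0.865) and DLX2 (0.849). Among the 3 genes most like MXI1 were SPTSSB (0.980) and MITF (0.980), and MAX was most like PGAP4 (0.966), RPL15 (0.963) and ST3GAL6-AS1 (0.962). MXD3 was most like CC2D1A (0.980), MXD4 like WIZ (0.957), MNT like RHBDF2 (0.919) and MLX like TBC1D20 (0.968).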

How the data were processed

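Total RNA of 18 libraries was sequenced as paired-end reads, per the labels. The authors deposited raw read counts per gene, and a normalized table on a log2 scale that was checked but not used. The submitters' processing notes name build hg38, the aligner STAR 2.7.8, the trimmer Trim Galore 0.6.6, DESeq2 1.38.3, and featureCounts from the Subread package (2.0.1). The annotation release and strand setting: not given in the sources used here. Symbols were matched for 99.75% of genes, and positions, exon lengths and GC content come from GENCODE 29.

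Counts were fitted with edgeR 4.0.16 (R 4.3.3, quasi-likelihood, robust, TMM factors, filterByExpr at a minimum count of 10) with 1 mean per group over all 18 libraries and 12 residual degrees of freedom. Tests were two-sided, with Benjamini-Hochberg adjustment over 19038 genes and a threshold of 0.05. There were 11 comparisons, and those that share a group are not independent. SE was obtained by dividing the size of the log2 change by the root of its F value. Intervals labelled 95% use t with 12 degrees of freedom and can be wider than edgeR's test implies. MNT with TNF in N108, for example, had an unadjusted edgeR p of 0.042 and an interval of -0.003 to 0.284. CPM use TMM-scaled totals. Members and lists were chosen with earlier results of these data known. Beyond the 8 members and NFKBIA, the text names list members by the smallest p, the nearest tested neighbours and the 3 most alike genes. CCAT1 and CASC21 were not analysed here, and 1 of the alike genes is not reported here. The comparison settings tried are DESeq2 1.42.0, other scaling factors and filters, fits on fewer groups, a replicate block, GC correction and leaving out each library.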

Additional observations from a re-analysis of the deposited data

Results flagged for a closer look

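For 6 genes, of the 160 in the lists and NFKBIA, the response to TNF differed from that of WT by edgeR's interaction test. None of the 8 members was among them. Over all genes tested, 2.62% passed in N108 and 0.315% in M3. In N108 the log2 interaction was 0.57 for MLXIPL (adjusted p = 0.00317), with 52.6 CPM with TNF and 47.8 CPM untreated in N108 against 39.5 and 53.2 CPM in WT. KLF10 was at -0.35 in N108 (adjusted p = 0.0105), with 218 CPM with TNF and 111 CPM untreated against 199 and 79.5 CPM in WT. EIF4E, the cap-binding factor, was at -0.34 in N108 (adjusted p = 0.0372), with 64.8 CPM with TNF and 74.3 CPM untreated against 67.0 and 60.6 CPM in WT. SIN3B was at 0.26 (adjusted p = 0.0485), with 67.5 and 61.1 CPM in N108 against 66.4 and 71.9 CPM in WT. COL1A1, one of the markers of other cell types, was at 0.65 in N108 (adjusted p = 0.00248), with 33.2 CPM with TNF and 28.0 CPM untreated against 17.2 and 22.8 CPM in WT. NFKBIA was at 0.58 in M3 (adjusted p = 3.54e-05), with 966 CPM with TNF and 77.9 CPM untreated against 758 and 91.6 CPM in WT. The EIF4E and SIN3B calls were each lost in at least 1 of the 21 other settings, and over all genes the interaction in N108 tracked GC content (Spearman 0.507, a description across genes).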

How the results depend on the processing

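Fold changes of the 8 members were recomputed 1416 times over the comparisons and settings. Of these, 1353 stayed on their side of the threshold, 37 lost a call and 26 gained one. In 0 cases did the sign change where either fit had passed. Uncalled values near 0 could change sign, as MYC's interaction with N108 did (-0.055 to 0.074 over the settings). For TNF in N108, 1 member in place of 2 was called with upper-quartile factors, with at least 1 CPM in 3 libraries and with the replicate block, and 0 with a fit on its own groups. That last fit called 1 in place of 2 for TNF in M3 and 2 in place of 1 for TNF in WT, where removing the GC trend also gave 2. N108 against M3 with TNF had 3 calls in place of 5 with the GC trend removed, with or without the block, and the interaction with N108 had 1 in place of 0 without a filter on low counts. Leaving out each library in turn gave 1 to 2 members for TNF in N108, 2 in M3 and 0 to 3 in WT. It gave 6 to 7 and 5 to 7 for N108 against WT untreated and with TNF, 5 to 7 and 6 to 7 for M3, 3 and 3 to 5 for N108 against M3, and 0 to 3 and 0 for the interactions with N108 and M3. The cause was not tested. Over all genes, TNF in N108 had 228 calls, against 1333 without N108 TNF replicate 3, 151 without N108 TNF replicate 2 and 143 without N108 untreated replicate 2, and TNF in WT had 987, against 432 without WT TNF replicate 3. Leaving out WT untreated replicate 2 gave 562 there. The interaction with N108 had 498 calls, and 183 to 2430 without 1 library.

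Replicate numbers did not pair the libraries: same-numbered libraries deviated from their group means with correlations of -0.147 to 0.103, and 5 of 18 matched their own number best. Depth limits MXD1 most, at 201 to 450 counts.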
